A study of Rattus norvegicus with 4 samples.

Results

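The Z-disc and stretch-response genes described here were Ankrd1, Csrp3, Xirp1, Fhl1, Fhl2, Ldb3, Actn2, Tcap, Des and Rcan1. Their members were all probe sets, the groups of array probes that report 1 transcript, with exactly 1 of these symbols in the platform annotation. All 10 genes were found, with 16 of 15866 probe sets, out of 10411 genes named by a single symbol. Every one of the 16 was bright enough to be tested. Signals came from ventricular myocytes of neonatal rats, that is heart muscle cells in primary culture, on 2 arrays from fibronectin-coated dishes and 2 from uncoated control dishes. Fibronectin is a matrix glycoprotein bound by integrin receptors. Both groups had been kept for 24 h in 10% serum and for 48 h without serum before total RNA was taken. Whether the 2 arrays of a group stand for different cultures is not stated in the labels, so the spread between arrays that the p-values rest on may be technical.

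The Z-disc anchors the thin filaments of neighbouring sarcomeres, the contractile units of heart muscle, and carries force sideways to the cell membrane. It also holds proteins that are thought to sense stretch and to signal to the nucleus through LIM-domain proteins, ankyrin-repeat proteins and the phosphatase calcineurin. Transcripts of several of these proteins, Ankrd1 among them, are known to increase in loaded or hypertrophied heart muscle.

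Fibronectin replicate 2 stood apart from the other arrays. Over the 9519 tested probe sets its log2 signals correlated at 0.792 with the other fibronectin array and at 0.775 and 0.794 with control replicates 1 and 2, while fibronectin replicate 1 correlated at 0.904 and 0.847 with them and the controls at 0.910 with each other. Signals below are quantile normalized, so that all arrays share 1 distribution, and no lower than a floor of 23.4, set at the 20th percentile. No probe set on the array passed limma's test at a Benjamini-Hochberg adjusted p of 0.05 (0 of 9519, percent called 0), while 616 had an unadjusted p under 0.05. A difference between the groups is therefore given with its 95% interval and as a count of values without overlap, meaning that both fibronectin arrays lay on the same side of both controls.

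Members without overlap were found in both directions. By the brightest probe set of each gene, Tcap, Xirp1 and Des were higher on both fibronectin arrays (3 of 10, against 20.6% of 7101 genes), and Fhl2 and Rcan1 were lower (2 of 10, against 17.2%). Over all 16 probe sets 3 were higher and 6 lower without overlap, against 19.3% and 19.0% of all tested probe sets. The median log2 difference was 0.10 over the brightest probe sets and -0.15 over all 16, beside 0.02 for all genes and -0.02 for all tested probe sets. In the deposited signals, taken as they are, the split was 6 higher and 4 lower, and with each array shifted to the same median it was 6 and 6. Among all tested probe sets 20.6% were then higher and 12.5% lower on the deposited scale, and 20.6% and 15.9% with the median shift. The median over the 16 was 0.23 and 0.18 in these settings, so the balance of higher and lower members depended on the scaling. Without fibronectin replicate 2 there were 4 higher and 8 lower of 16, beside 37.1% and 34.5% of all tested probe sets, a background that is larger because 1 array is set against 2.

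**Figure D1:**
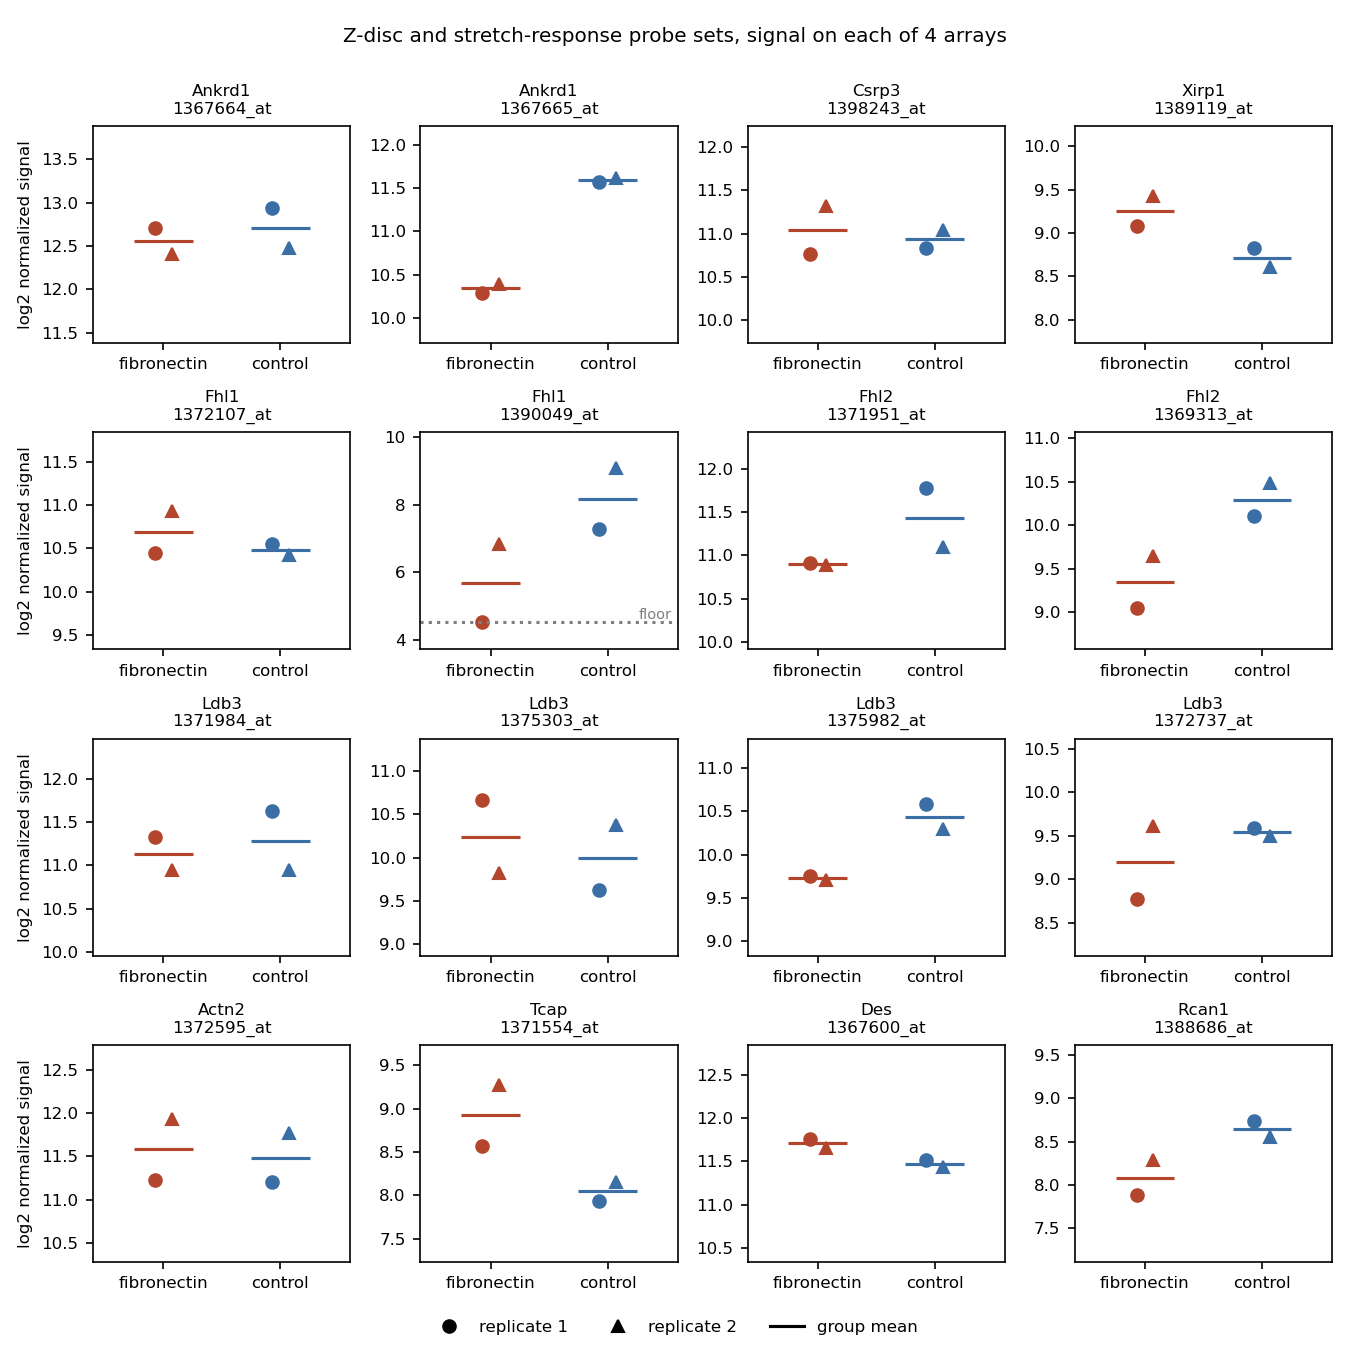
Log2 normalized signal of the 16 probe sets on each array, fibronectin left and control right, with the mean of each group as a line. Every panel spans the same range of log2 units except that of Fhl1 1390049_at, which is wider and shows the floor; the tightest separation is in Ankrd1 1367665_at.

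The stretch-response gene Ankrd1 encodes the cardiac ankyrin repeat protein, which binds the spring-like region of titin and also enters the nucleus. It had 2 probe sets, both annotated to the same transcript record, and they gave different answers. The brighter, 1367664_at, read 6690.0 and 5433 on fibronectin and 7868 and 5712 in controls. The groups overlapped, and the log2 difference was -0.15 (SE 0.27, 95% interval -0.79 to 0.48). The dimmer, 1367665_at, read 1257 and 1341 on fibronectin and 3033 and 3133 in controls. After quantile normalization both groups were tight and far apart, with log2 signals averaging 10.34 ± 0.07 on fibronectin and 11.59 ± 0.03 in controls (SD, n = 2 each). Its value was 2.37-fold lower on fibronectin, a log2 difference of -1.25 (SE 0.26, 95% interval -1.84 to -0.65), with limma's Benjamini-Hochberg adjusted p = 0.528. With 1 array left out this difference stayed between -1.33 and -1.20, with -1.20 found without fibronectin replicate 2. That of the brighter probe set was 0.37 on the deposited scale and ranged from -0.38 without control replicate 2 to 0.076 without control replicate 1, so its direction was not settled.

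Csrp3 encodes the muscle LIM protein, an adaptor at the Z-disc that has been proposed as part of a stretch sensor. It read 1742 and 2558 on fibronectin and 1824 and 2112 in controls, so that the fibronectin arrays lay on either side of both controls. The log2 difference was 0.11 (SE 0.30, 95% interval -0.58 to 0.79), and it was -0.16 without fibronectin replicate 2 and 0.39 without fibronectin replicate 1. Tcap encodes telethonin, which joins the ends of titin molecules in the Z-disc and binds Csrp3. Its signals were 379 and 621 on fibronectin and 245 and 285 in controls, the largest upward difference among the 16. The value was 1.84-fold higher, a log2 difference of 0.88 (SE 0.38, 95% interval -0.003 to 1.76), with limma's Benjamini-Hochberg adjusted p = 0.762. Without fibronectin replicate 2, the highest array for Tcap, the difference was 0.53, and without fibronectin replicate 1 it was 1.20. These 2 partners in the proposed sensor thus had differences of 0.11 and 0.88, and the difference between them was not tested.

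Fhl1 and Fhl2 encode proteins built of LIM domains that bind titin, and Fhl2 also binds calcineurin. After quantile normalization, Fhl2 was lower on both fibronectin arrays in both of its probe sets. Its brighter probe set, 1371951_at, read 1935 and 1901 on fibronectin and 3501 and 2188 in controls, a log2 difference of -0.53 (SE 0.30, 95% interval -1.24 to 0.18). The distance rested largely on control replicate 1, without which it was -0.20, while without fibronectin replicate 2 it was -0.49. In the deposited signals the groups overlapped, at 2310 and 1785 on fibronectin and 3237 and 1818 in controls, with a difference of -0.26. The dimmer probe set, 1369313_at, read 528 and 802 on fibronectin and 1106 and 1430 in controls. There the value was 1.93-fold lower, a log2 difference of -0.95 (SE 0.33, 95% interval -1.72 to -0.18), with limma's Benjamini-Hochberg adjusted p = 0.718. Without fibronectin replicate 2 it was -1.23, and on the deposited scale it was -0.85. For Fhl1 the probe sets disagreed. The brighter, 1372107_at, read 1399 and 1955 on fibronectin and 1494 and 1371 in controls, with overlap and a log2 difference of 0.21 (SE 0.29, 95% interval -0.47 to 0.88), or -0.036 without fibronectin replicate 2. The dimmer, 1390049_at, was at the floor on fibronectin replicate 1 and at 115 on fibronectin replicate 2, against 155 and 537 in controls. Its log2 difference of -2.48 (SE 0.87, 95% interval -4.51 to -0.44) was the largest of the 16. Because 1 array was at the floor its size was not fully measured. With no floor it was -3.41, and with an offset of 50 instead it was -1.85. It also ran from -3.57 without fibronectin replicate 2 to -1.27 without fibronectin replicate 1.

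Ldb3, Actn2, Des and Xirp1 encode structural proteins. Alpha-actinin 2, the product of Actn2, crosslinks actin filaments in the Z-disc, and its transcript read 2406 and 3912 on fibronectin and 2354 and 3488 in controls. Within each group the arrays lay further apart than the group means did, with a log2 difference of 0.10 (SE 0.34, 95% interval -0.68 to 0.88) that became -0.24 without fibronectin replicate 2 and -0.20 without control replicate 1. Desmin, the intermediate filament encoded by Des, ties Z-discs to each other and to the cell membrane. Des read 3463 and 3230.0 on fibronectin and 2924 and 2762 in controls, without overlap but only 1.18-fold higher, a log2 difference of 0.23 (SE 0.25, 95% interval -0.34 to 0.81). On the deposited scale the Des difference was 0.59, and without fibronectin replicate 2 it was 0.28. Xirp1, which encodes the actin-binding Xin protein of the intercalated disc, read 542 and 686 on fibronectin and 453 and 390.3 in controls. Its value was 1.45-fold higher, a log2 difference of 0.54 (SE 0.32, 95% interval -0.21 to 1.29), at a limma Benjamini-Hochberg adjusted p = 0.772. It stayed above 0 under every setting tried, from 0.37 without fibronectin replicate 2 to 0.70 without fibronectin replicate 1.

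Ldb3 encodes Cypher, also named ZASP, a PDZ and LIM protein that binds alpha-actinin. Its 4 probe sets did not share a direction. The brightest, 1371984_at, read 2564 and 1978 on fibronectin and 3153 and 1980.35 in controls, with a log2 difference of -0.15 (SE 0.32). Probe set 1375303_at read 1625 and 903 on fibronectin and 791 and 1328.5 in controls, with a difference of 0.24 (SE 0.40). Without control replicate 1 these differences were 0.20 and -0.14, and without fibronectin replicate 2 they were 0.034 and 0.64. In both, the values of the groups interleaved. After quantile normalization, probe set 1375982_at was the one without overlap, at 865 and 839 on fibronectin and 1532 and 1255 in controls. It was 1.63-fold lower, with a log2 difference of -0.70 (SE 0.28, 95% interval -1.36 to -0.048) that was -0.66 without fibronectin replicate 2. In the deposited signals its groups overlapped, at 1099 and 692 on fibronectin and 1552 and 1061 in controls, with a difference of -0.56. The dimmest, 1372737_at, read 439 and 782 on fibronectin and 771 and 726 in controls, and its difference of -0.35 (SE 0.36) was 0.065 without fibronectin replicate 1 and -0.76 without fibronectin replicate 2. The 4 differences therefore ran from -0.70 to 0.24 for 1 gene, and the lowest limma adjusted p among them by the Benjamini-Hochberg method was 0.754.

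Rcan1, a regulator that binds and inhibits calcineurin and is itself a known target of calcineurin and NFAT signalling, was lower on both fibronectin arrays. It read 236 and 311 on fibronectin and 426 and 376 in controls. That is 1.48-fold lower, a log2 difference of -0.56 (SE 0.35, 95% interval -1.38 to 0.26), with limma's Benjamini-Hochberg adjusted p = 0.772. It was -0.78 without fibronectin replicate 2 and -0.35 without fibronectin replicate 1, and on the deposited scale it was -0.51.

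**Figure D2:**
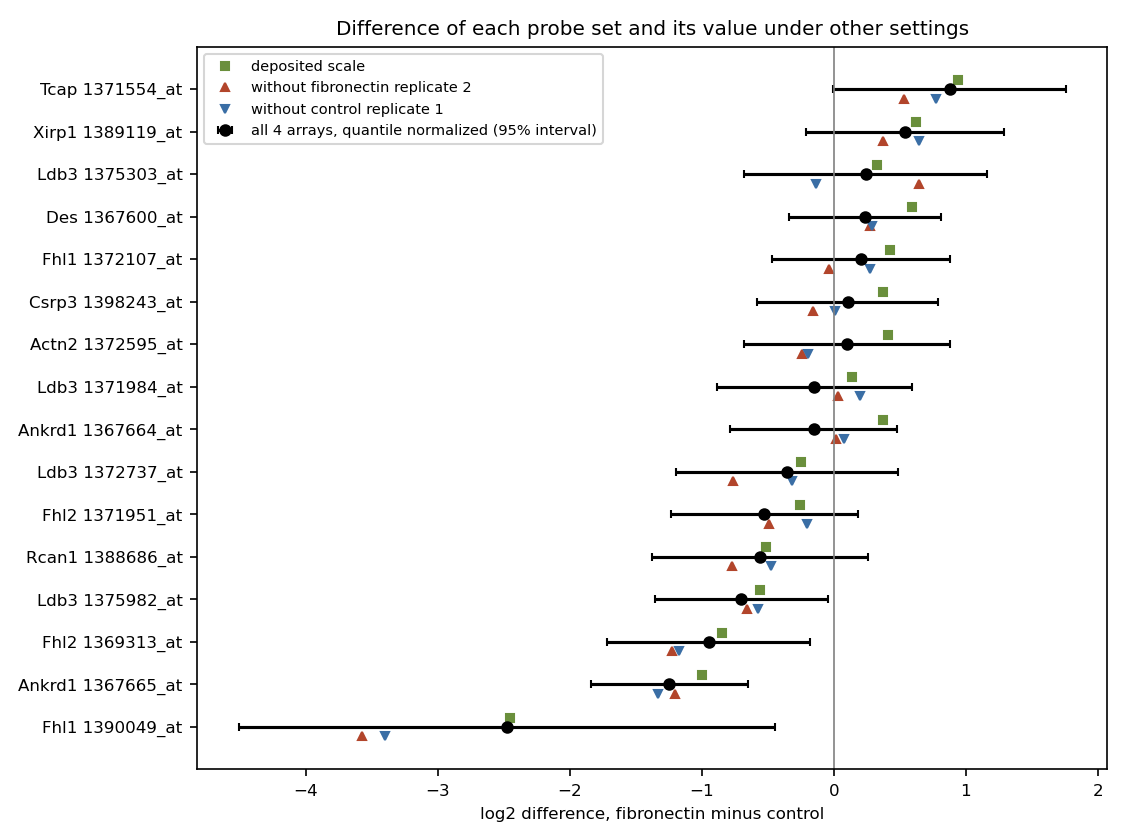
Log2 difference, fibronectin minus control, of each probe set with its 95% interval (black), beside the same difference on the deposited scale (squares) and without fibronectin replicate 2 (upward triangles) or control replicate 1 (downward triangles). The intervals of 4 probe sets, all with lower values on fibronectin, do not reach 0 before adjustment; those of the other 12 do.

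At an unadjusted p under 0.05 there were 4 member probe sets, Ankrd1 1367665_at, Fhl1 1390049_at, Fhl2 1369313_at and Ldb3 1375982_at, all lower on fibronectin, where 2.66% of all tested probe sets were higher and 3.81% lower at that p. None of the 4 was the brightest probe set of its gene. Of the 6 dimmer member probe sets 4 were lower without overlap and 0 higher, with a median of -0.83. Log2 differences of 1 or more without overlap were seen in 2 of the 16, Ankrd1 1367665_at and Fhl1 1390049_at, both lower (against 5.79% of all tested probe sets), and in 0 higher (against 3.42%). Among all 970 dimmer probe sets of named genes, 32.3% were lower and 12.3% higher without overlap, with a median of -0.32. At an unadjusted p under 0.05 in limma, 123 of these 970 were lower and 13 higher. Log2 differences of 1 or more without overlap were lower in 176 of them and higher in 32. The dimmer probe sets of other genes thus leaned the same way.

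The ratio of a gene's dimmer to its brightest probe set is free of any single scale factor of an array, and it was taken on the deposited signals of each array. Quantile normalization is not a single factor and does move it. This comparison was added after the values had been seen. For Ankrd1 the ratio was 0.191 and 0.193 on fibronectin and 0.436 and 0.563 in controls, 2.58-fold lower. For Fhl1 it was 0.00374 and 0.0580 on fibronectin and 0.110 and 0.379 in controls, where the first value comes from a signal of 6.48, below the floor. For Ldb3 1375982_at it was 0.357 and 0.369 on fibronectin and 0.539 and 0.641 in controls, 1.62-fold lower. The ratios of Fhl2 and of the other Ldb3 probe sets overlapped between the groups. A lower ratio without overlap was thus found for 3 of the 6 pairs, against 29.1% of the 970 pairs on the array, and a higher one for 0, against 13.3%. The median log2 change of the ratio over the 970 pairs was -0.26, beside -1.37 for Ankrd1 and -0.70 for Ldb3 1375982_at. After quantile normalization these values were -0.22, -1.09 and -0.55, and 3 of the 6 pairs were again lower without overlap and 0 higher, against 27.1% and 15.8% of all pairs. Such a ratio compares 2 probe sets on these arrays and was not tested, and it does not show which of them changed. Signal ratios between the 3' and 5' ends of control transcripts, a measure of RNA or labelling length, moved with the groups for Gapdh, at 6.02 and 3.52 on fibronectin and 1.64 and 1.15 in controls. For beta-actin they were 13.03 and 6.29 on fibronectin and 1.46 and 1.40 in controls, while for hexokinase they overlapped, at 3.11 and 7.0 on fibronectin and 3.77 and 4.12 in controls. Their part in the difference between probe sets was not tested.

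**Figure D3:**
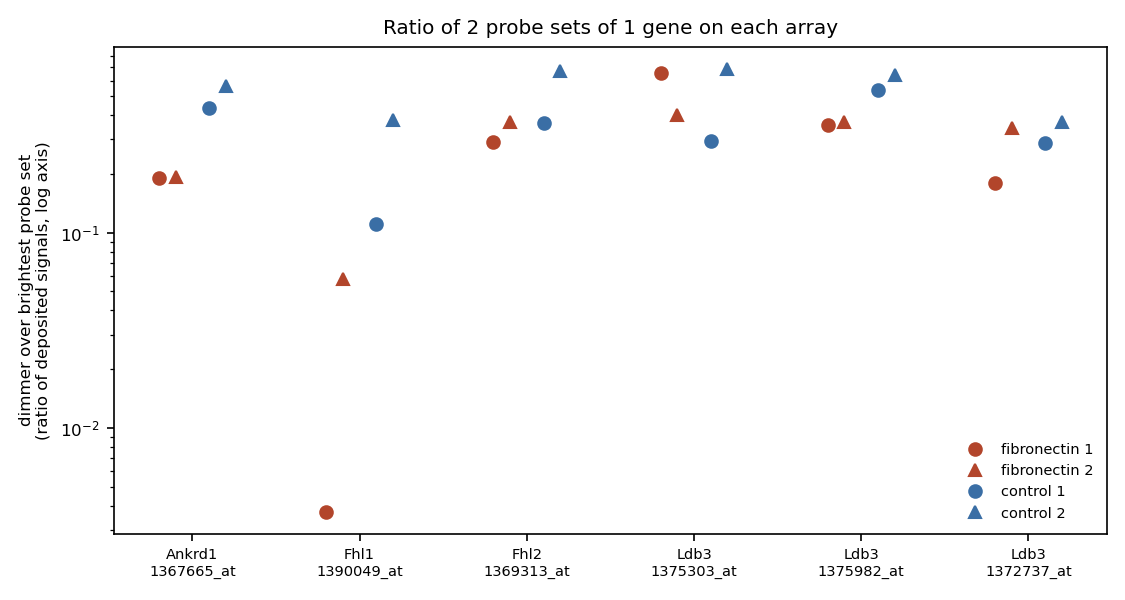
Ratio of each dimmer probe set to the brightest probe set of the same gene, from the deposited signals of each array, on a log axis. The Ankrd1 ratio lies near 0.19 on both fibronectin arrays and between 0.436 and 0.563 in controls.

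Of the 45 pairs of member genes, compared by brightest probe set, the closest profiles over the 4 arrays were those of Ankrd1 and Ldb3, with a mean absolute gap of 0.07 in log2 deviation from each gene's own mean. Csrp3 and Fhl1 followed with 0.11. The farthest were Tcap and Rcan1 with 0.72 and Fhl2 and Tcap with 0.70. With 4 arrays this describes the profiles only. Ankrd1 and Ldb3 shared high values on replicate 1 of each group, at 0.07 and 0.11 above their means on fibronectin and 0.31 and 0.41 above them in controls. Actn2 was instead high on replicate 2 of each group, at 0.40 above its mean on fibronectin and 0.23 in controls. For these 3 genes the arrays thus sorted by replicate number more than by coating.

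Close relatives of the members were measured beside them. Among the 11 tested paralogs 2 were higher and 3 lower without overlap, against 20.6% and 17.2% of all genes, with a median log2 difference of -0.08. The lists are not separate. Pdlim1, Pdlim3, Pdlim5 and Pdlim7 count again among the other Z-disc genes below, and Rcan2 among the stretch and calcineurin response genes. Actn1, the alpha-actinin of stress fibres and adhesions, read 1607 and 1601 on fibronectin and 1312 and 1239.7 in controls, a difference of 0.33 (SE 0.26), though its dimmer probe set differed by -0.34 with overlap. Actn4, the other non-muscle alpha-actinin, read 437 and 424 on fibronectin and 575 and 904 in controls, a difference of -0.75 (SE 0.34). Csrp2, a LIM protein of smooth muscle related to Csrp3, differed by 0.54 (SE 0.33), and Csrp1 by -0.23 (SE 0.36). Fhl3 differed by -0.32 (SE 0.38) and the Rcan1 relative Rcan2 by 0.24 (SE 0.35), though the dimmer Rcan2 probe set differed by -0.31 (SE 0.46). Of the PDZ and LIM relatives of Ldb3, Pdlim3 differed by -0.53 (SE 0.32), Pdlim1 by 0.13 (SE 0.31) and Pdlim7 by 0.40 (SE 0.40). The dimmer Pdlim7 probe set differed by -0.10 (SE 0.40). The brighter Pdlim5 probe set differed by -0.66 (SE 0.35), and the dimmer one by 0.72 (SE 0.45) with overlap. Vimentin, the intermediate filament encoded by Vim, differed by -0.08 (SE 0.31), beside 0.23 for Des. No paralog passed the threshold, and the smallest adjusted p in limma was 0.762.

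Among other Z-disc and costamere genes, costameres being the sites that tie Z-discs to the membrane, 25 of 32 listed genes were tested. Without overlap 6 were higher and 8 lower, against 20.6% and 17.2% of all genes, with a median log2 difference of -0.03. Myoz2, whose product calsarcin-1 tethers calcineurin to alpha-actinin, read 4039 and 2894 on fibronectin and 2416 and 1819 in controls, a difference of 0.71 (SE 0.30). Synpo2l, an actin-bundling Z-disc protein, differed by 0.58 (SE 0.30), Nrap, a scaffold of myofibril assembly, by 0.41 (SE 0.33) and Cryab, a small heat shock protein bound to desmin and titin, by 0.36 (SE 0.26). In the other direction the brighter probe set of Vcl, which encodes the costamere protein vinculin, differed by -1.84 (SE 0.71), with 475 on fibronectin replicate 1 and 2702 on fibronectin replicate 2 against 3166 and 5235 in controls. Its dimmer probe set differed by -0.05. Nexn, an actin-binding Z-disc protein, differed by -1.15 (SE 0.42) and -1.31 (SE 0.34) in its 2 probe sets. Ttn, the titin gene, differed by -0.92 (SE 0.41), and Capza2, a subunit of the protein that caps actin filaments at the Z-disc, by -0.87 (SE 0.33). No gene of this list passed, and the smallest adjusted p in limma over all of its tested probe sets was 0.596, for the second Nexn probe set. The count of lower genes was 4 on the deposited scale and 2 with the median shift. The share of all tested probe sets lower without overlap also fell, from 19.0% to 12.5% and 15.9%.

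Stretch and calcineurin response genes were tested for 18 of 24 listed genes, with 6 higher and 2 lower without overlap, against 20.6% and 17.2% of all genes, and a median of 0.08. Nppa, the atrial natriuretic peptide gene, read 11106 and 9159 on fibronectin and 5712 and 2299 in controls. Nppb, the B-type natriuretic peptide gene, read 2217 and 5096 on fibronectin and 1459 and 1539 in controls. Beside them the brighter Ankrd1 probe set, also a stretch-response transcript, overlapped between the groups. The dimmer Ankrd1 probe set was lower without overlap, with a difference of -1.25. The matricellular gene Ccn1 differed by 1.29 (SE 0.67), with 204 and 161 on fibronectin and 139 and 39 in controls. The early response gene Fos differed by 1.17 (SE 0.67), at low signals of 122 and 88 on fibronectin and 47 and 45 in controls. Its other probe set, too dim to be tested, was at the floor on every array but control replicate 2. The lower genes without overlap were Ppp3r1 and Nfatc4. Ppp3r1, the regulatory subunit of calcineurin, read 350.1 and 198 on fibronectin and 797 and 704 in controls, a difference of -1.51 (SE 0.38), while its other probe set was too dim to be tested. Nfatc4, a transcription factor that calcineurin activates, read 205 and 274 on fibronectin and 449 and 540.4 in controls, a difference of -1.06 (SE 0.35). The catalytic subunits Ppp3ca and Ppp3cb differed by -0.51 (SE 0.41) and 0.05 (SE 0.36) in their brighter probe sets, both with overlap, and Nfatc3 by 0.03 (SE 0.41). The dimmer Ppp3ca probe set differed by 0.12 (SE 0.42), with overlap. That of Ppp3cb, too dim to be tested, read 23.4 and 26.2 on fibronectin and 90.3 and 112 in controls. Ppp3cc was also too dim, with 1 probe set at the floor on both fibronectin arrays against 88.9 and 83.0 and the other at the floor on all arrays. Nor did a gene here pass, at a smallest adjusted p of 0.594 in limma.

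Summed markers of cardiac myocytes, fibroblasts and smooth muscle overlapped between the groups, and those of leukocytes were lower on both fibronectin arrays. A sum is weighted to bright genes, and the median log2 signal, after subtracting each gene's control mean, sorted the lists differently. By that median, fibroblast markers were lower on both fibronectin arrays, at -0.90 and -0.26 against -0.20 and 0.20 in controls. Cardiac markers were too, at -0.15 and -0.21 against 0.12 and -0.12, while leukocyte markers overlapped, at -0.47 and -0.17 against -0.20 and 0.20. Smooth muscle markers overlapped by the median as well. In whole cultures, fewer cells of a type and less RNA per cell cannot be told apart. The 13 tested cardiac myocyte markers summed to 62960.2 and 62546 on fibronectin and 74296 and 62283 in controls, with 2 higher and 3 lower without overlap. Beside this and the counts that follow, 20.6% of all genes were higher and 17.2% lower without overlap. Fibroblast markers summed to 31444 and 42347 on fibronectin and 41963 and 56930 in controls, and 6 of 13 were lower without overlap and 1 higher, with a median log2 difference of -0.72. Smooth muscle markers, which matter here because Des, Fhl1 and Fhl2 are also expressed in smooth muscle, summed to 4574 and 7653 on fibronectin and 4309 and 9565 in controls. Of the 8 tested, 1 was higher and 2 lower without overlap, and Lmod1 was too dim to be tested. Leukocyte markers summed to 1133 and 1441 on fibronectin and 1620 and 2054 in controls, with 3 of 8 lower without overlap and 0 higher. Of 10 skeletal muscle markers in the annotation 8 were too dim to be tested, Myod1 being at the floor on all arrays. Of 7 endothelial markers 5 were too dim, among them Pecam1. The part of these cell types in the members' differences was not tested.

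**Figure D4:**
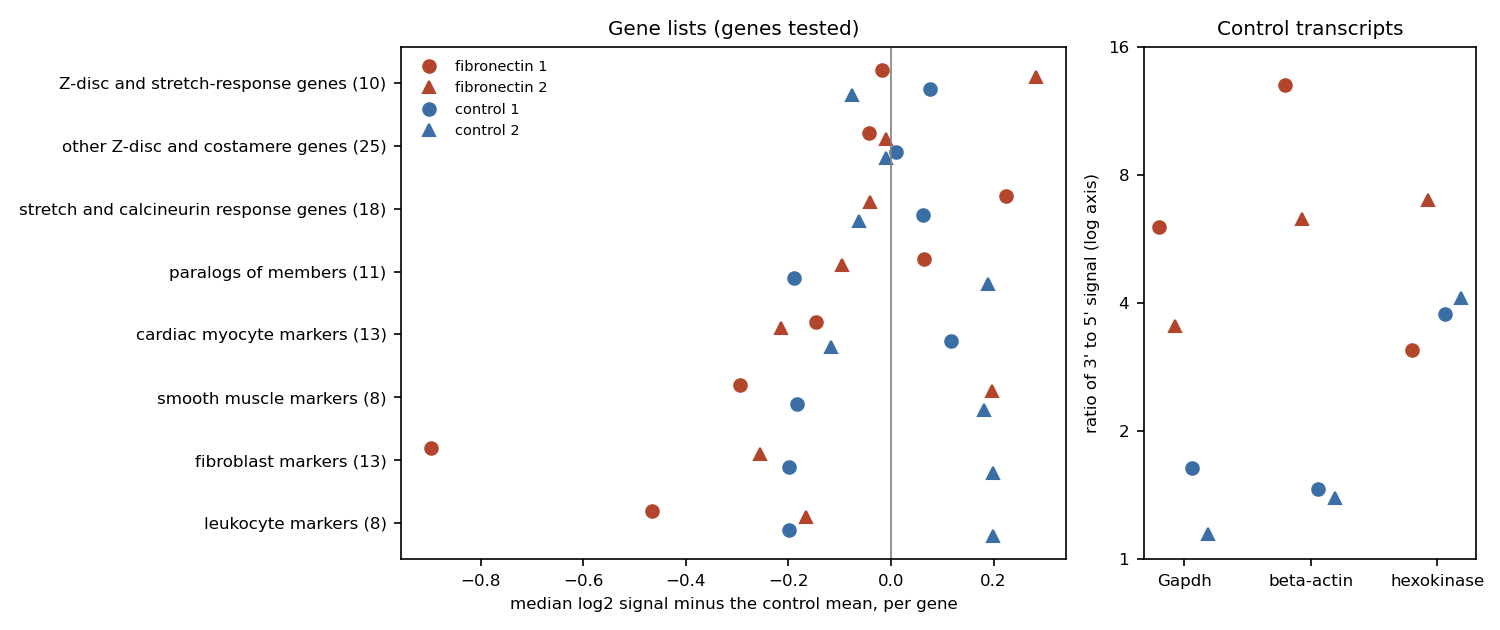
Left, the median log2 signal of each gene list on each array after subtracting each gene's control mean, by brightest tested probe set, with the number of genes. Right, the ratio of 3' to 5' signal of 3 control transcripts on a log axis; Gapdh and beta-actin ratios are higher on both fibronectin arrays, while the Z-disc and stretch-response genes lie at -0.02 and 0.28 on fibronectin and 0.08 and -0.08 in controls.

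Promoter sequence was available for 7 of the 10 genes, in 11 windows of the RefSeq promoter table for build GRCr8, and it was searched over the 250 bases before each transcription start. The CArG box, bound by serum response factor, was found in 4 of the 11 windows, against 1.5% of 33465 windows in the table, and these belonged to Fhl1, Fhl2 and Ldb3. The MEF2 site was found in 3 windows, of Xirp1 and Fhl2, against 2.96%, where 2 of the 3 are overlapping windows of Xirp1. The core CATTCC of the MCAT element, bound by TEAD factors, was found in 1 window, of Fhl2, against 12.1%. The NFAT core GGAAA was found in 5 windows of 4 genes, against 56.9% in the table. The TATA sequence TATAAA was found in 3 windows, against 12.9%. The sequence TGATAA, read by zinc-finger factors of the heart, was found in 0, against 7.97%. All motifs were read on both strands, and the Fhl2 MEF2 site overlaps a TATAAA on the other strand. The windows are not independent samples, and a match is only a match of letters. Shown here are the 4 windows with a CArG box, then the first Xirp1 window and the Rcan1 window, since Xirp1 and Rcan1 lay on opposite sides without overlap. Capitals mark the CArG box in Fhl1, Ldb3 and both Fhl2 windows, followed in the first Fhl2 window by the adjoining MCAT core and MEF2 site. In Xirp1 they mark the NFAT core and the MEF2 site, and in Rcan1 the NFAT core on either strand. Each runs 5′ to 3′ on the gene's own strand, which is plus for Fhl1 and minus for the rest. Positions are chr9:52954541-52954790 and chr9:52923327-52923576 for Fhl2, chrX:139638246-139638495 for Fhl1, chr16:9924680-9924929 for Ldb3, chr8:128635012-128635261 for Xirp1 and chr11:45118237-45118486 for Rcan1.
Fhl2 first start: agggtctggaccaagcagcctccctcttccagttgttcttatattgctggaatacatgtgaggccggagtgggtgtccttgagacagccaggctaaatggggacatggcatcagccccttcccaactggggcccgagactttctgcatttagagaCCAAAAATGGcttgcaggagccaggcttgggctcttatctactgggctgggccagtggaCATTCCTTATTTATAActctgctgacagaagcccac
Fhl2 second start: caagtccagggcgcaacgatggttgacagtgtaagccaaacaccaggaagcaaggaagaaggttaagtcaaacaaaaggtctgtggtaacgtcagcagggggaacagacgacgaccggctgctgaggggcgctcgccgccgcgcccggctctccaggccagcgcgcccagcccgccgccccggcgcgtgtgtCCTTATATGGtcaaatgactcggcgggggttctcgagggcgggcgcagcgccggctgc
Fhl1 first start: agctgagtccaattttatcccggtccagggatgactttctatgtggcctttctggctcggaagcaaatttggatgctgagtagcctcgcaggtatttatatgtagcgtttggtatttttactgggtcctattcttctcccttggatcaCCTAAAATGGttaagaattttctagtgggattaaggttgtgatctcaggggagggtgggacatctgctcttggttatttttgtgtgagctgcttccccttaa
Ldb3: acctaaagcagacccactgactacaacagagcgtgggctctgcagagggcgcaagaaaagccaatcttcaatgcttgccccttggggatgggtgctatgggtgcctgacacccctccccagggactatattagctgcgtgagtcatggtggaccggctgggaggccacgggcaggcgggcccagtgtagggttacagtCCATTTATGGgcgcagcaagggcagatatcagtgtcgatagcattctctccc
Xirp1 first start: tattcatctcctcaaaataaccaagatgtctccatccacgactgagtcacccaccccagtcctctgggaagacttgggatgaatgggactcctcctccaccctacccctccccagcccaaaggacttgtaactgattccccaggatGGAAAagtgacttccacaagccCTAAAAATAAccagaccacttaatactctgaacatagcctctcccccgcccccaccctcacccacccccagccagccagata
Rcan1: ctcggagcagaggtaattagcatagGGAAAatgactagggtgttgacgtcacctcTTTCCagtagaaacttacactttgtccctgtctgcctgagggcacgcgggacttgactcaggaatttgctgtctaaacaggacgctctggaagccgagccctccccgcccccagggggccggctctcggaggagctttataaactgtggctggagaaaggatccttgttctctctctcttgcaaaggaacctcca

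The genes with a CArG box in these windows, Fhl1, Fhl2 and Ldb3, had log2 differences of 0.21, -0.53 and -0.15 in their brightest probe sets. Those without one, Xirp1, Des, Actn2 and Rcan1, had 0.54, 0.23, 0.10 and -0.56. By these probe sets both sets held higher and lower values on fibronectin, though those of Fhl1, Ldb3 and Actn2 overlapped between the groups. The dimmer probe sets of Fhl1 and Fhl2 differed by -2.48 and -0.95, and those of Ldb3 by 0.24, -0.70 and -0.35. Any part of the motif in these differences was not tested.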

How the data were processed

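The authors deposited a linear signal intensity for every probe set on each array. Its derivation from the images is not stated in the sources used here. Trimmed means (2% left out at each end) were 247.3 and 175.0 on fibronectin and 219.8 and 175.0 in controls, so the arrays were quantile normalized, which can move a difference up or down. Signals were raised to the 20th percentile and converted to log2. Affymetrix control probe sets (9 of 15875) and the 40% with the lowest mean (6347) were left out. The remaining 9519 were fitted in limma 3.58.1 (R 4.3.3; lmFit, then eBayes with the trend option), two-sided, with Benjamini-Hochberg adjustment over all of them. This test was checked on simulated data with independent noise on every array, where no array stood apart as fibronectin replicate 2 did. Errors are moderated standard errors. An exact two-sided permutation test could not go below 0.333 with 2 arrays against 2, so none was used. The number of arrays limits the precision of the differences.

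Genes were named through the platform annotation, where 12783 probe sets had 1 symbol, 312 several and 2771 none; all 16 member probe sets matched the GRCr8 gene table by Entrez identifier, with 0 symbols changed. The members and gene lists were chosen with earlier results of these data known. All member probe sets are named. Of each other list up to 4 genes per direction without overlap may be named, largest difference of the brightest probe set first, and any paralog; further calcineurin genes, dimmer probe sets and marker genes too dim to test are named outside that rule and were picked after their values were seen. Alternatives were the deposited scale, a median shift, no filter or one of 60%, no floor, an offset of 50, no trend, the replicate number as a block, each array left out and 1 probe set per gene.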

Additional observations from a re-analysis of the deposited data

How the results depend on the processing

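The counts, medians and differences were recomputed under 13 other settings. The filters, the trend, the block and the choice of probe set leave a member's difference as it is by construction, as does leaving out the floor except for Fhl1 1390049_at. Under the scalings, the offset and the omission of 1 array, 97 of 112 member differences kept their direction and 15 reversed. On the deposited scale 6 member probe sets were higher without overlap and the members' median was 0.23, with 0.37 for Ankrd1 1367664_at and 0.14 for Ldb3 1371984_at, 0.23 for the median of the paralogs and 4 other Z-disc genes lower. With the median shift these values were 6, 0.18, 0.32, 0.091, 0.18 and 2. Of all tested probe sets, 20.6% were higher and 12.5% lower without overlap on the deposited scale, and 20.6% and 15.9% with the median shift. With the brightest probe set alone 2 members were lower and their median was 0.10.

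The replicate numbers are not stated to pair the arrays, though deviations of same-numbered arrays from their group means correlated at 0.271. With the number as a block 234 probe sets passed the threshold, among them 3 members, Ankrd1 1367665_at, Fhl1 1390049_at and Fhl2 1369313_at, and the differences themselves were the same by construction.

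With 1 array left out, where the lone array is assumed to vary like the other group, 0 to 459 probe sets passed, 459 of them without fibronectin replicate 1, 17 without fibronectin replicate 2, 6 without control replicate 1 and 0 without control replicate 2, and 0 members passed in any of these. Members higher without overlap numbered 4 to 7 and lower 6 to 8 of 16, beside 31.3% to 39.6% and 29.3% to 40.6% of all tested probe sets, and their median ran from -0.39 to -0.17. The difference ran from -0.38 to 0.076 for Ankrd1 1367664_at, -0.16 to 0.39 for Csrp3, -0.036 to 0.47 for Fhl1 1372107_at and -0.24 to 0.44 for Actn2. For the Ldb3 probe sets 1371984_at, 1375303_at and 1372737_at it ran from -0.49 to 0.20, -0.18 to 0.64 and -0.76 to 0.065. Other Z-disc genes higher without overlap numbered 8 to 12, stretch and calcineurin response genes 7 to 10 higher and 2 to 7 lower with a median of -0.093 to 0.25, and paralogs 3 to 4 higher and 3 to 6 lower with a median of -0.36 to 0.062. The cause of these changes was not tested; fewer arrays alone raise the counts without overlap. Precision is limited by the number of arrays, 2 in each group.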
